A study of Arabidopsis thaliana with 6 samples.

Results

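The comparison described here sets the RNA-seq library of *hac1/5* leaves treated with 2,6-dichloroisonicotinic acid (INA) against that of water-treated Col leaves. It uses 2 of the 6 conditions of the series. Every gene model with at least 1 read in either library was a member, which gave 24167 of the 25931 gene models in the joined tables and 21057 of their 22183 genes.

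In the *hac1/5*+INA group, *Arabidopsis thaliana* plants with the *hac1-2* and *hac5-2* alleles in the Columbia-0 background were sprayed with 300 µM INA at 4 weeks of age, and leaves were taken 12 h later. In the Col group, Columbia-0 plants of the same age, grown under the same short days, were sprayed with water. INA-treated Col (Col+INA) and INA-treated *npr1-1* (*npr1-1*+INA, the same background with the *npr1-1* allele) are given beside both where a value needs context. Each condition has 1 library, made from the pooled RNA of 3 independent experiments, so that no difference below has a replicate check in the RNA-seq. The paper also measured some of its genes by RT-qPCR, and those values are not used here. Water-treated *hac1/5* was not analysed here, and an effect of INA, an effect of the *hac1/5* mutations and their combination therefore cannot be told apart in these values.

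INA is a synthetic analog of salicylic acid (SA), the hormone that plants accumulate after attack by biotrophic pathogens. SA acts largely through the coactivator NPR1, which is brought to promoters by TGA transcription factors and turns on pathogenesis-related (*PR*) genes and genes of systemic acquired resistance. HAC1 and HAC5 are histone acetyltransferases of the CBP family, whose members loosen chromatin by acetylating histone tails and serve as coactivators.

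The *hac1/5*+INA library held 6944614 reads on gene models and the Col library 6920927, against 7146973 in Col+INA and 6698569 in *npr1-1*+INA. Reads of the 2 libraries were compared for each gene model with a two-sided exact binomial test, which compares the libraries and not the conditions. A gene was called higher or lower when the Benjamini-Hochberg adjusted p was at most 0.01 and the log2 ratio of RPKM was at least 1 or at most -1. Confidence intervals (CI, 95%, Clopper-Pearson) cover counting error only. Log2 ratios set counts under 3 to 3, since 0 observed reads leave room for as many as 3, equal to 0.432 CPM (reads scaled to the library total) in *hac1/5*+INA and 0.433 CPM in Col. The leaf genes *RBCS1A* (9879 reads in *hac1/5*+INA and 15272 in Col), *RCA* (2690 in *hac1/5*+INA and 3652 in Col) and *GAPA* (24218 in *hac1/5*+INA and 39058 in Col) were abundant in both. Of the markers of other organs, the root gene *PYK10* had 0 reads in *hac1/5*+INA and 16 in Col, and the flower genes *PI* and *AG* had 9 and 0 reads in *hac1/5*+INA and 0 and 1 in Col. The other listed root, seed and flower markers had no entry in the joined tables. Since leaves are a mixture of cell types, fewer cells of a type and less RNA per cell cannot be told apart.

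The mutated loci were examined in the same counts. *HAC5* (AT3G12980) had 2 reads in *hac1/5*+INA, against 122 in Col+INA, 248 in *npr1-1*+INA and 272 reads in Col, a ratio to Col of 0.00733 (CI 0.000883 to 0.0267). *HAC1* (AT1G79000) had 25 reads in *hac1/5*+INA, 28 in Col+INA, 63 in *npr1-1*+INA and 69 reads in Col. Because *HAC1* was about as low in Col+INA, its reads do not check the genotype.

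The promoters of the 3 genes with the largest rise between well-counted libraries, *LLP1*, *PCR1* and *PCC1*, and of the *PR* genes *PR2* and *PR5* are shown because the results below turn on how differently these genes behaved. Each line gives the 250 bases before the 5′ end of the gene model, on the strand of the gene, read from the RefSeq copy of the *Arabidopsis* genome (TAIR10.1, whose annotated genes matched the TAIR10 positions in the tables to within 300 bases for 99.3% of nuclear gene models). Capitals mark matches on either strand to TGACG, the core of the element bound by TGA factors, and to TTGAC, the core of the W-box bound by WRKY factors. Matches of both can overlap, as in TTGACG. None of these windows overlaps another gene model in the tables. *LLP1* lies at chr5:815674-816658, minus strand, with its window at chr5:816659-816908. *PCR1* lies at chr1:5132535-5133716, minus strand, window chr1:5133717-5133966. *PCC1* lies at chr3:7845823-7846605, minus strand, window chr3:7846606-7846855. *PR2* lies at chr3:21188517-21189859, minus strand, window chr3:21189860-21190109. *PR5* lies at chr1:28177703-28178940, plus strand, window chr1:28177453-28177702.
LLP1: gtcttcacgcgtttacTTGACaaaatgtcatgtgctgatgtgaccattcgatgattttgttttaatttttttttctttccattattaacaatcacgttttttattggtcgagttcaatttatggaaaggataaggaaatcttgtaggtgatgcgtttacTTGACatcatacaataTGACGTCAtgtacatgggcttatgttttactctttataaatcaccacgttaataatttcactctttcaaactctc
PCR1: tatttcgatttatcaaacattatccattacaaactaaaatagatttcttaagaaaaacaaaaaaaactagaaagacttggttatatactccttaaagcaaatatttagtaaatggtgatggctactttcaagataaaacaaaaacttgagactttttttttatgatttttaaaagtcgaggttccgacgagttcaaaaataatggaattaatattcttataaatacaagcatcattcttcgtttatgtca
PCC1: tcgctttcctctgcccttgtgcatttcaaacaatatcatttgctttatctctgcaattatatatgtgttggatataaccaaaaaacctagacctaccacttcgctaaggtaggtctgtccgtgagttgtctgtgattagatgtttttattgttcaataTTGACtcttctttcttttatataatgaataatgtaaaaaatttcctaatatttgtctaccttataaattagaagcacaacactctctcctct
PR2: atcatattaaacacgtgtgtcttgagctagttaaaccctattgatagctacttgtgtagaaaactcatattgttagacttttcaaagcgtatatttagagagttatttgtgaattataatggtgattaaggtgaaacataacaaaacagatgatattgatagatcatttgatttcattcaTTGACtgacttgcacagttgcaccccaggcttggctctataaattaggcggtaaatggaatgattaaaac
PR5: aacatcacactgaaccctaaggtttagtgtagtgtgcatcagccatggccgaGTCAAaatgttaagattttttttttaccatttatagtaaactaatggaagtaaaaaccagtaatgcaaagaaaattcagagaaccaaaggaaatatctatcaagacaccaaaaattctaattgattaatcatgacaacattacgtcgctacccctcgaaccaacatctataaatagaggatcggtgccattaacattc

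The window of *LLP1* held 2 matches to TGACG, one on each strand and overlapping each other, and 2 to TTGAC. *PCC1*, *PR2* and *PR5* each held 1 match to TTGAC and 0 to TGACG, and *PCR1* held 0 matches to either motif. Over the 20914 windows of nuclear genes with a read, 44.75% held TTGAC and 21.48% held TGACG. Among the 3359 windows of genes called higher in *hac1/5*+INA these shares were 58.26% and 27.27%, and among the 2019 windows of genes called lower they were 38.14% and 17.43%. A match is a description of the letters and not of a binding site, and 0 matches do not mean that no factor binds. The paper reports, from chromatin immunoprecipitation, that tagged TGA2 was bound at the *PR2* promoter with and without INA.

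Across all genes, 3364 of 21057 (16.0%) were called higher in *hac1/5*+INA than in Col and 2019 (9.59%) were called lower. Of the genes called higher, 1344 differed by at least 4-fold, 284 by at least 16-fold and 57 by at least 64-fold. Of those called lower, 995, 124 and 16 differed by at least these sizes. The share called depended on depth, as 2.04% of the 6717 genes with under 20 reads in both libraries together were called higher and 2.11% lower, against 25.5% and 11.8% of the 7313 genes with at least 100 but under 1000 reads. The median log2 ratio was 0.03 over all 21057 genes but 0.33 over the 14340 genes with at least 20 reads. Over those 14340 genes the median for Col+INA over Col was 0.15. Scaling the libraries by TMM factors took out a shift of 0.28 on the log2 scale and gave 2419 genes higher and 2677 lower, so that higher genes made up 47.5% of the calls in place of 62.5%. Statements on gene groups below are relative to the total of reads, and TMM counts are given for lists where they differed most. Ratios to Col+INA are also relative to totals and were not rescaled, so ratios near 1 depend on the scaling. In lists of few genes, none called lower is near the 9.59% of all genes.

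**Figure D1:**
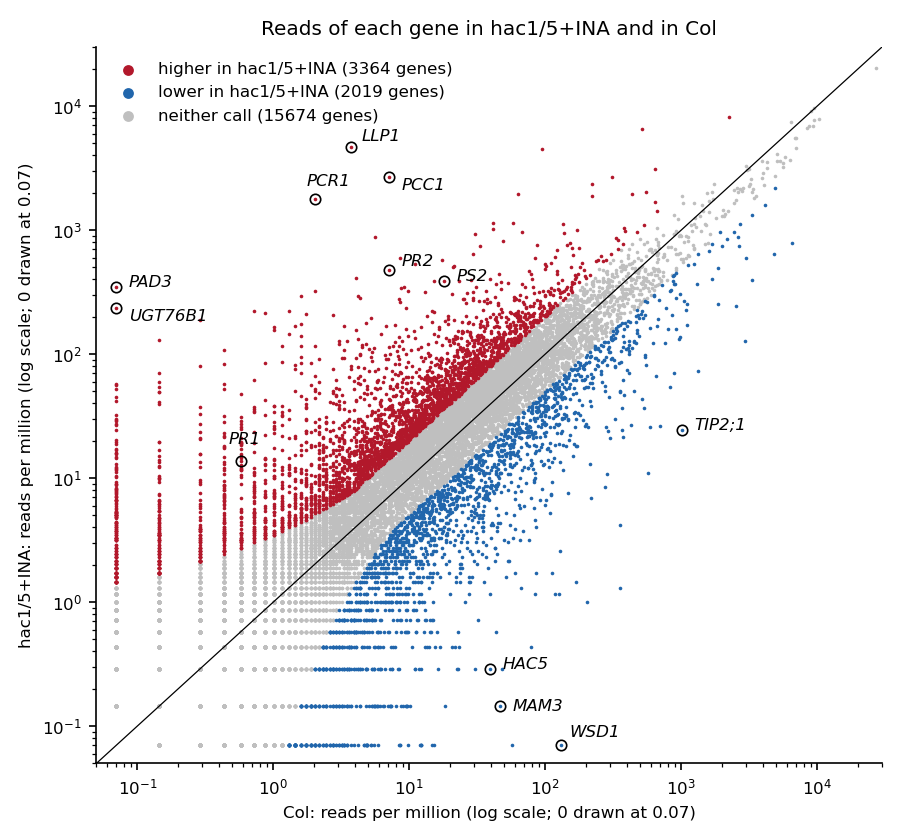
CPM of each of 21057 genes in *hac1/5*+INA (vertical axis, log scale) and in Col (horizontal axis, log scale), with 1 point for each gene and counts of 0 drawn at 0.07. Red points are the 3364 genes called higher, blue points the 2019 called lower, and the line marks equal values; *PAD3* and *UGT76B1* lie on the left edge with 0 reads in Col, and *WSD1* lies on the lower edge with 0 reads in *hac1/5*+INA.

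The largest rise among genes with at least 10 reads in both libraries was that of *LLP1* (AT5G03350), which encodes a legume lectin-like protein of systemic resistance. *LLP1* had 32464 reads in *hac1/5*+INA, 14075 in Col+INA, 1216 in *npr1-1*+INA and 26 reads in Col. The ratio of *hac1/5*+INA to Col was 1244 (CI 849 to 1905), and the ratio to Col+INA was 2.37 (CI 2.33 to 2.42). *LLP1* was thus higher in the mutant than in the INA-treated wild type. Per length, it was the 15th most abundant gene in *hac1/5*+INA at 4746 RPKM, against rank 10133 and 3.81 RPKM in Col. *PCR1* (AT1G14880), a small membrane protein named for cadmium resistance, had 12437 reads in *hac1/5*+INA, 23119 in Col+INA, 46 in *npr1-1*+INA and 14 reads in Col, a ratio to Col of 885 (CI 527 to 1620). *PCC1* (AT3G22231), a pathogen- and clock-controlled gene, had 18626 reads in *hac1/5*+INA, 21648 in Col+INA, 467 in *npr1-1*+INA and 49 reads in Col, a ratio to Col of 379 (CI 286 to 512). *PCC1* reached 4921 RPKM and rank 12 in *hac1/5*+INA, against 13.0 RPKM in Col. All 3 genes had more reads in *hac1/5*+INA than in *npr1-1*+INA by at least 24.3-fold at the lower ends of their intervals.

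The other 5 of the 8 largest risers had under 40 reads in Col and over 1000 in *hac1/5*+INA. *AT1G13470*, of unknown function, had 2036 reads in *hac1/5*+INA, 1618 in Col+INA, 8 in *npr1-1*+INA and 11 reads in Col. *LURP1* (AT2G14560), which is needed for basal defence against an oomycete, had 2226 reads in *hac1/5*+INA, 6468 in Col+INA, 461 in *npr1-1*+INA and 14 reads in Col, and its ratio of *hac1/5*+INA to Col+INA lay below 1 (0.354, CI 0.337 to 0.372). *GSTF7* (AT1G02920), a glutathione S-transferase, had 6115 reads in *hac1/5*+INA, 3957 in Col+INA, 76 in *npr1-1*+INA and 39 reads in Col, and the aspartyl protease gene *AT3G51330* had 1476 reads in *hac1/5*+INA, 1794 in Col+INA, 82 in *npr1-1*+INA and 12 reads in Col. The hydrolase gene *AT3G48080* had 1178 reads in *hac1/5*+INA, 456 in Col+INA, 55 in *npr1-1*+INA and 10 reads in Col, but it neighbours the near-identical *EDS1* (AT3G48090; 46 reads in *hac1/5*+INA, 42 in Col+INA, 15 in *npr1-1*+INA and 10 reads in Col), and how reads fitting both were assigned is not given in the sources used here. The same holds for *GSTF6* and *GSTF7*.

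Genes that were nearly silent in Col included some, but not all, of the enzymes of camalexin synthesis and of SA modification. *PAD3* (AT3G26830), the cytochrome P450 of the last step of camalexin synthesis, had 2412 reads in *hac1/5*+INA, 512 in Col+INA, 3 in *npr1-1*+INA and 0 reads in Col, at least 801-fold higher than in Col. *UGT76B1* (AT3G11340), a glucosyltransferase that acts on SA and isoleucic acid, had 1635 reads in *hac1/5*+INA, 1443 in Col+INA and 0 in *npr1-1*+INA and in Col, at least 543-fold higher. *DLO1* (AT4G10500), an SA hydroxylase, had 1304 reads in *hac1/5*+INA against 7078 in Col+INA, 62 in *npr1-1*+INA and 2 reads in Col (ratio to Col 650, CI 180 to 5371). *DLO1* thus stood at 0.190 of its Col+INA value (CI 0.179 to 0.201), whereas *PAD3* stood at 4.85 times (CI 4.41 to 5.34). The glutathione transferases *GSTU4* (AT2G29460; 906 reads in *hac1/5*+INA, 367 in Col+INA, 40 in *npr1-1*+INA and 1 read in Col) and *GSTF6* (AT1G02930; 749 reads in *hac1/5*+INA, 518 in Col+INA, 15 in *npr1-1*+INA and 3 reads in Col) completed the 5 genes with most reads among those with 3 or fewer in Col. Of the genes called higher, 443 had 3 or fewer reads in Col.

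**Figure D2:**
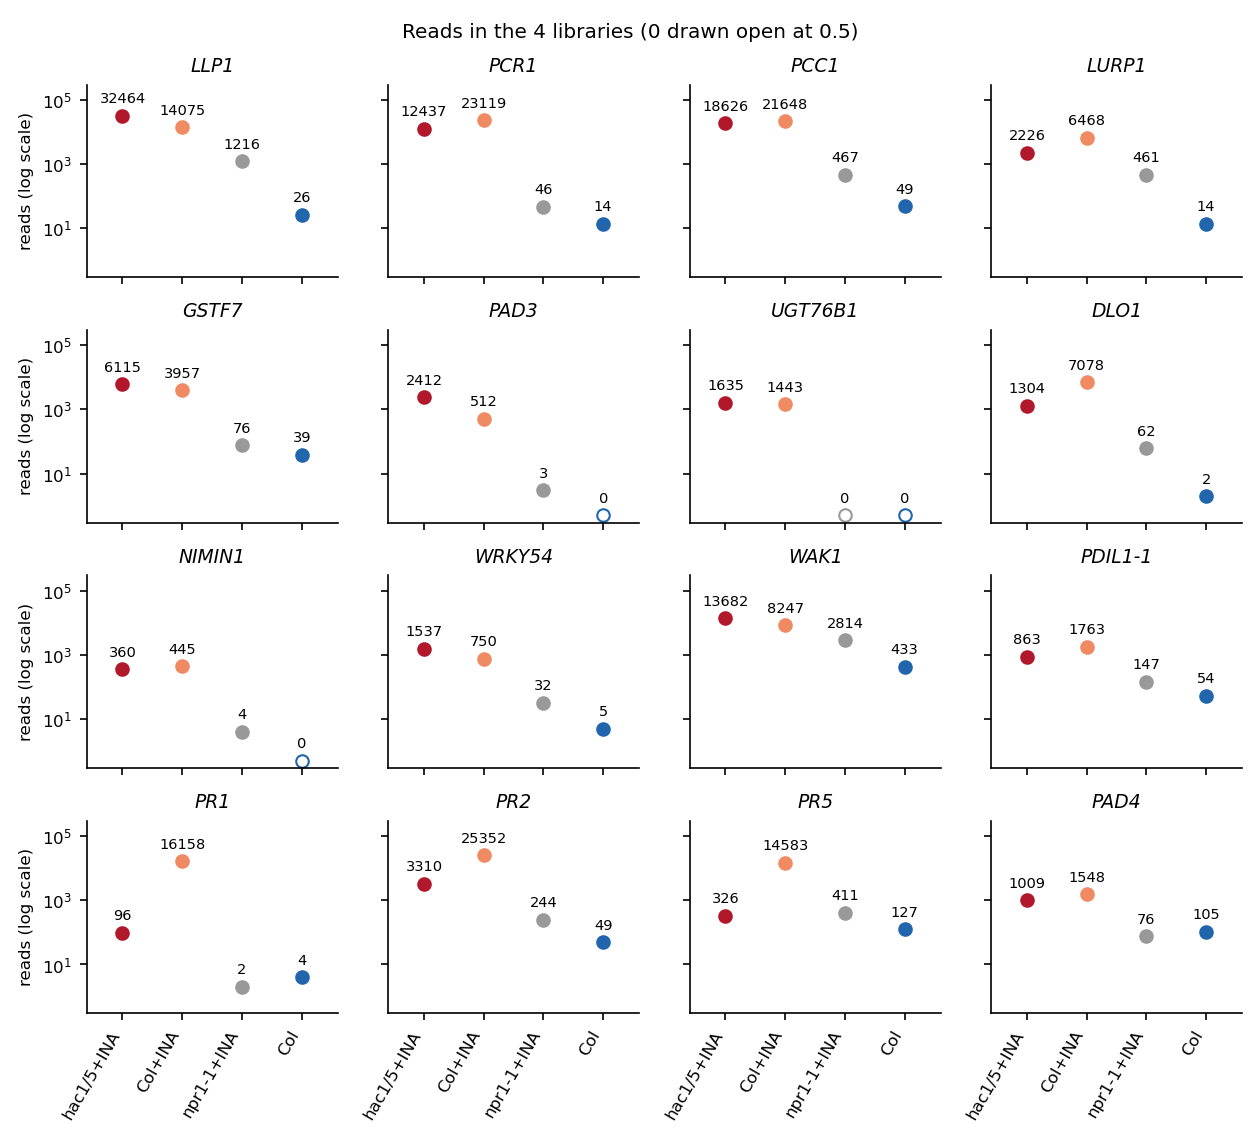
Reads (vertical axis, log scale) of 16 genes in the libraries *hac1/5*+INA, Col+INA, *npr1-1*+INA and Col, with 1 point for each library, the count printed above it and counts of 0 drawn open at 0.5. *LLP1*, *PAD3* and *WAK1* lie higher in *hac1/5*+INA than in Col+INA, while *PR1* with 96 reads in *hac1/5*+INA against 16158 in Col+INA and *PR5* with 326 in *hac1/5*+INA against 14583 in Col+INA lie far below.

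*PR* proteins are secreted antimicrobial proteins whose transcripts are the usual readout of SA signalling. Of the 8 listed *PR* genes, 6 were called higher in *hac1/5*+INA than in Col and none lower, with a median log2 ratio of 4.78 (7.47 for Col+INA over Col and 1.82 for *npr1-1*+INA over Col). *PR1* (AT2G14610) had 96 reads in *hac1/5*+INA, 16158 in Col+INA, 2 in *npr1-1*+INA and 4 reads in Col. It was thus 23.9-fold higher in *hac1/5*+INA than in Col (CI 9.04 to 89.6) but at 0.00611 of its Col+INA level (CI 0.00495 to 0.00747). *PR2* (AT3G57260), a beta-1,3-glucanase, had 3310 reads in *hac1/5*+INA, 25352 in Col+INA, 244 in *npr1-1*+INA and 49 reads in Col (ratio to Col 67.3, CI 50.8 to 91.2). *PR5* (AT1G75040), a thaumatin-like protein, had 326 reads in *hac1/5*+INA, 14583 in Col+INA, 411 in *npr1-1*+INA and 127 reads in Col, a ratio to Col of 2.56 (CI 2.08 to 3.17) and a value below that of *npr1-1*+INA. *PR5* lost its call at a log2 threshold of 1.5. Other secreted enzymes rose more than *PR5*: the chitinase gene *AT2G43570* had 1492 reads in *hac1/5*+INA, 4977 in Col+INA, 75 in *npr1-1*+INA and 6 reads in Col, *BG3* (AT3G57240) had 398 in *hac1/5*+INA against 3 in Col, and *PR4* (AT3G04720) had 923 in *hac1/5*+INA against 29 in Col. The basic chitinase *CHIB* (AT3G12500), a marker of ethylene and jasmonate signalling, had 0 reads in *hac1/5*+INA, 48 in Col+INA, 12 in *npr1-1*+INA and 8 reads in Col, and its difference from Col did not pass the threshold.

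SA is made mainly through isochorismate, and its accumulation depends on a set of lipase-like proteins and transcriptional activators. Of the 10 genes listed for SA synthesis and accumulation, 9 were called higher and none lower, against 16.0% and 9.59% of all genes. The median log2 ratio of the 10 was 3.21 (3.94 for Col+INA over Col and 0.08 for *npr1-1*+INA over Col). *ICS1* (AT1G74710), isochorismate synthase, had 82 reads in *hac1/5*+INA, 153 in Col+INA, 10 in *npr1-1*+INA and 9 reads in Col (ratio to Col 9.08, CI 4.56 to 20.6). *EDS5* (AT4G39030), the exporter of isochorismate, had 417 reads in *hac1/5*+INA, 926 in Col+INA, 37 in *npr1-1*+INA and 44 reads in Col. *PBS3* (AT5G13320), which conjugates isochorismate with glutamate, had 494 reads in *hac1/5*+INA, 1074 in Col+INA, 45 in *npr1-1*+INA and 59 reads in Col. These 3 enzymes stood between 0.463 and 0.552 of their Col+INA values. *PAD4* (AT3G52430) had 1009 reads in *hac1/5*+INA, 1548 in Col+INA, 76 in *npr1-1*+INA and 105 reads in Col, and the activators *SARD1* (AT1G73805) and *CBP60g* (AT5G26920) had 782 and 43 reads in *hac1/5*+INA against 38 and 1 in Col. *EPS1*, the acyltransferase of the last step, was the exception with 92 reads in *hac1/5*+INA and 157 in Col (ratio 0.584, CI 0.446 to 0.760), which missed the fold threshold, but was called lower under TMM scaling.

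Enzymes that inactivate SA rose as well, with 4 of 5 measured genes called higher. Besides *UGT76B1* and *DLO1*, these were *DMR6* (AT5G24530), an SA hydroxylase with 6417 reads in *hac1/5*+INA, 10446 in Col+INA, 1113 in *npr1-1*+INA and 210 reads in Col, and *UGT74F2* (AT2G43820), which makes SA glucose ester, with 770 reads in *hac1/5*+INA, 747 in Col+INA, 481 in *npr1-1*+INA and 80 reads in Col. For *UGT74F2* the ratio of *hac1/5*+INA to Col+INA was 1.06, with an interval that included 1 (CI 0.958 to 1.17). Of the 8 listed genes of systemic resistance, 6 were called higher and none lower, against 16.0% and 9.59% of all genes. The median log2 ratio of the 8 was 5.37 (7.28 for Col+INA over Col). *ALD1* (AT2G13810) and *FMO1* (AT1G19250), the enzymes that make pipecolic acid and its N-hydroxylated form, were both unread in Col. *ALD1* had 188 reads in *hac1/5*+INA, 796 in Col+INA, 4 in *npr1-1*+INA and 0 reads in Col, at least 62.5-fold higher than in Col, and *FMO1* had 82 reads in *hac1/5*+INA, 293 in Col+INA, 0 in *npr1-1*+INA and 0 reads in Col, at least 27.2-fold higher. *DIR1*, a lipid-transfer protein of long-distance signalling, had 124 reads in *hac1/5*+INA and 120 in Col, and *AZI1* had 9 in *hac1/5*+INA and 5 in Col, which did not pass the test.

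The receptors and regulators of SA had a lower median. Of 13 measured *NPR*, *NIMIN* and *TGA* genes, 8 (61.5%) were called higher and none lower, against 16.0% and 9.59% of all genes. The median log2 ratio of the 13 was 1.92. *NPR1* (AT1G64280) had 1476 reads in *hac1/5*+INA, 1115 in Col+INA, 355 in *npr1-1*+INA and 286 reads in Col (ratio to Col 5.14, CI 4.53 to 5.86). *NPR3* (AT5G45110), an SA receptor and corepressor, had 1526 reads in *hac1/5*+INA, 988 in Col+INA, 139 in *npr1-1*+INA and 106 reads in Col, and *NPR4* (AT4G19660) had 939 reads in *hac1/5*+INA, 764 in Col+INA, 421 in *npr1-1*+INA and 165 reads in Col. The 3 receptor genes were higher in *hac1/5*+INA than in Col+INA, with ratios of 1.26 to 1.59 whose intervals lay above 1. The NPR1-interacting repressors *NIMIN1* (AT1G02450) and *NIMIN2* (AT3G25882) were both called higher. *NIMIN1* had 360 reads in *hac1/5*+INA, 445 in Col+INA, 4 in *npr1-1*+INA and 0 reads in Col, and *NIMIN2* had 366 reads in *hac1/5*+INA, 750 in Col+INA, 19 in *npr1-1*+INA and 3 reads in Col. Among TGA factors *TGA3* (AT1G22070) was called higher, with 1034 reads in *hac1/5*+INA and 375 in Col, whereas *TGA4* had 12 reads in *hac1/5*+INA and 13 in Col and *TGA7* had 179 in *hac1/5*+INA and 114 in Col. All 5 listed redox genes, which serve the reduction of NPR1 and detoxification, were called higher: *GSTF2* (AT4G02520) had 31382 reads in *hac1/5*+INA, 36237 in Col+INA, 1719 in *npr1-1*+INA and 659 reads in Col, and *TRXh5* (AT1G45145) had 816 reads in *hac1/5*+INA, 1141 in Col+INA, 42 in *npr1-1*+INA and 31 reads in Col. *GRX480* (AT1G28480), a glutaredoxin that binds TGA factors, had 120 reads in *hac1/5*+INA and 0 in Col, at least 39.9-fold higher.

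**Figure D3:**
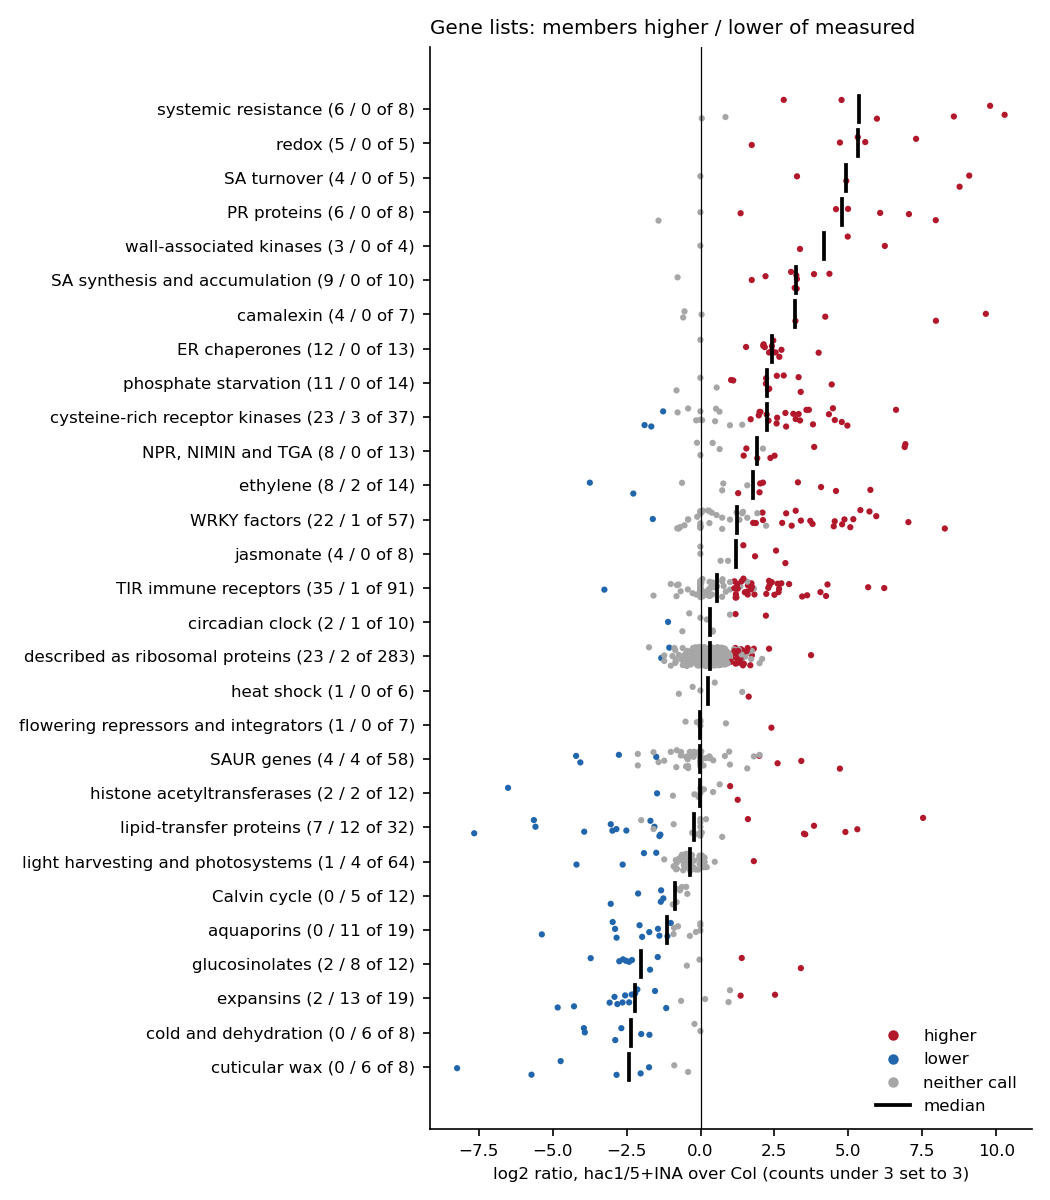
Log2 ratio of *hac1/5*+INA over Col (horizontal axis, counts under 3 set to 3) for the members of 29 gene lists with at least 4 measured genes, with 1 point for each gene, a vertical bar at the median, and the numbers called higher and lower of those measured in parentheses. Systemic resistance genes lie highest with a median of 5.37, and cuticular wax genes lowest with a median of -2.43. The cuticular wax, aquaporin and phosphate starvation lists were made after values were seen. The other lists were chosen with earlier results of these data known, so the order of the lists is a description. Among the other lists shown, cold and dehydration genes lie lowest with a median of -2.34.

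WRKY proteins are the transcription factors that bind the W-box and include activators and repressors of SA responses. Of 57 measured *WRKY* genes 22 were called higher and 1 was called lower, against 16.0% and 9.59% of all genes. *WRKY54* (AT2G40750) rose most, with 1537 reads in *hac1/5*+INA, 750 in Col+INA, 32 in *npr1-1*+INA and 5 reads in Col (ratio to Col 306, CI 131 to 945). *WRKY38* (AT5G22570) had 393 reads in *hac1/5*+INA, 435 in Col+INA, 4 in *npr1-1*+INA and 0 reads in Col, and *WRKY51* (AT5G64810) had 185 reads in *hac1/5*+INA, 330 in Col+INA, 2 in *npr1-1*+INA and 0 reads in Col. *WRKY53* (AT4G23810), a regulator of leaf senescence and defence, had 1002 reads in *hac1/5*+INA, 1058 in Col+INA, 29 in *npr1-1*+INA and 43 reads in Col. Its ratio to Col was 23.2 (CI 17.1 to 32.3), and its ratio to Col+INA was 0.975 (CI 0.893 to 1.06). The gene called lower was *WRKY27* (AT5G52830), with 60 reads in *hac1/5*+INA and 183 in Col.

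Many surface and intracellular immune receptors were also called higher. Of 37 cysteine-rich receptor kinases, 23 were called higher and 3 lower, led by *CRK7* (AT4G23150) with 588 reads in *hac1/5*+INA, 1086 in Col+INA, 16 in *npr1-1*+INA and 6 reads in Col. *CRK12*, *CRK21* and *CRK42* were called lower, with 28, 20 and 162 reads in *hac1/5*+INA and 67, 74 and 512 in Col. The share of these kinases called lower (8.11%) was near the 9.59% of all genes, and that called higher (62.2%) was above the 16.0%. Of 91 measured genes described as TIR receptors, 35 were called higher and 1 lower, and TMM scaling reduced the higher ones to 28. *AT3G04210*, the TIR gene with most reads in *hac1/5*+INA, had 7886 reads in *hac1/5*+INA, 3233 in Col+INA, 478 in *npr1-1*+INA and 401 reads in Col, a ratio to Col+INA of 2.51 (CI 2.41 to 2.62). *AT4G19530*, the TIR gene called lower, had 126 reads in *hac1/5*+INA, 308 in Col+INA, 944 in *npr1-1*+INA and 1195 reads in Col. Of 4 measured wall-associated kinases, receptors for pectin fragments, 3 were called higher, *WAK1* (AT1G21250), *WAK2* (AT1G21270) and *WAK3* (AT1G21240), and *WAK4*, with 1 read in *hac1/5*+INA and 1 in Col, was not called. *WAK1* had 13682 reads in *hac1/5*+INA, 8247 in Col+INA, 2814 in *npr1-1*+INA and 433 reads in Col, *WAK2* had 2797 reads in *hac1/5*+INA and 271 in Col, and *WAK3* had 603 reads in *hac1/5*+INA and 8 in Col. These kinase genes lie close together on the chromosome and resemble each other, so that their reads may not be fully separable.

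Secretion of PR proteins requires chaperones of the endoplasmic reticulum (ER). Of 13 measured ER chaperone genes 12 were called higher and none lower, against 16.0% and 9.59% of all genes. The median log2 ratio of the 13 was 2.41 (3.47 for Col+INA over Col and 0.86 for *npr1-1*+INA over Col). *CNX1* (AT5G61790), a calnexin, had 6905 reads in *hac1/5*+INA, 17140 in Col+INA, 2485 in *npr1-1*+INA and 1184 reads in Col. *PDIL1-1* (AT1G21750), a protein disulfide isomerase, had 863 reads in *hac1/5*+INA, 1763 in Col+INA, 147 in *npr1-1*+INA and 54 reads in Col, and *ERDJ3B* (AT3G62600) had 1818 reads in *hac1/5*+INA, 4480 in Col+INA, 452 in *npr1-1*+INA and 272 reads in Col. All 12 had fewer reads per total in *hac1/5*+INA than in Col+INA, at 0.249 to 0.721 of its value. *bZIP60*, the transcription factor of the unfolded protein response, was among them with 995 reads in *hac1/5*+INA and 220 in Col. Of 6 cytosolic heat shock genes 1 was called higher (*HSP90.1*, 1359 reads in *hac1/5*+INA and 438 in Col) and none lower, a share near the 16.0% of all genes called higher. The median of the heat shock genes was 0.24 but -0.04 under TMM scaling, and in Col+INA over Col it was 2.31.

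Ethylene and jasmonate are hormones of the response to necrotrophs and insects that often oppose SA. Of 14 ethylene genes 8 (57.1%) were called higher, against 16.0% of all genes. The 2 called lower (14.3%) were not far from the 9.59% of all genes. The median log2 ratio of the ethylene genes was 1.79. The median was nearly as high for Col+INA over Col, at 1.64, and was 0.05 for *npr1-1*+INA over Col. *ERF1* (AT3G23240), an activator of ethylene responses, had 72 reads in *hac1/5*+INA, 40 in Col+INA, 0 in *npr1-1*+INA and 1 read in Col (ratio to Col 71.8, CI 12.5 to 2873). *ERF2* (AT5G47220) had 591 reads in *hac1/5*+INA, 168 in Col+INA, 30 in *npr1-1*+INA and 11 reads in Col, and *ACS6* (AT4G11280), which makes the precursor of ethylene, had 1099 reads in *hac1/5*+INA, 380 in Col+INA, 76 in *npr1-1*+INA and 65 reads in Col. Each of these 3 genes was higher in *hac1/5*+INA than in Col+INA, by 1.85 (CI 1.24 to 2.80), 3.62 (CI 3.05 to 4.32) and 2.98 times (CI 2.65 to 3.35). The ethylene receptor *ETR2* (AT3G23150; 1 read in *hac1/5*+INA, 13 in Col+INA, 4 in *npr1-1*+INA and 40 reads in Col) was called lower than in Col. The defensin *PDF1.2a*, a late target of both hormones, had 5 reads in *hac1/5*+INA, 38 in Col+INA, 163 in *npr1-1*+INA and 2 reads in Col and was not called. Of 8 measured jasmonate genes 4 (50.0%) were called higher, against 16.0% of all genes. They were the synthesis genes *LOX2* (7162 reads in *hac1/5*+INA and 2618 in Col), *AOC1* (468 in *hac1/5*+INA and 130 in Col), *AOC2* (642 in *hac1/5*+INA and 109 in Col) and *OPR3* (22 in *hac1/5*+INA and 3 in Col). The jasmonate marker *VSP2* was not analysed here, and *VSP1* had 1 read in *hac1/5*+INA and 0 in Col.

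Camalexin and glucosinolates are sulfur-containing defence compounds, and camalexin and the indolic glucosinolates are made from tryptophan, the aliphatic ones largely from methionine. Of 7 camalexin genes 4 were called higher, *PAD3*, *GSTF6*, *CYP71A12* (AT2G30750; 56 reads in *hac1/5*+INA and 0 in Col) and *CYP71A13* (AT2G30770; 1884 reads in *hac1/5*+INA, 638 in Col+INA, 78 in *npr1-1*+INA and 203 reads in Col). The upstream genes *CYP79B2*, *CYP79B3* and *GGP1* were not called, with ratios to Col of 0.666, 1.03 and 0.687. *CYP71A12* and *CYP71A13* are near-identical copies. Glucosinolate genes went the other way: of 12 genes 2 were called higher and 8 lower, with a median log2 ratio of -2.01, against -0.02 for Col+INA over Col and -0.13 for *npr1-1*+INA over Col. The share called higher (16.7%) was near the 16.0% of all genes, and that called lower (66.7%) was above the 9.59%. The genes called higher belong to the indolic branch, *MYB51* (AT1G18570; 432 reads in *hac1/5*+INA and 41 in Col) and *CYP83B1* (AT4G31500; 11637 in *hac1/5*+INA and 4416 in Col). *BCAT4* (AT3G19710), the first enzyme of the methionine-derived branch, had 385 reads in *hac1/5*+INA, 3279 in Col+INA, 1936 in *npr1-1*+INA and 1913 reads in Col. *MAM1* (AT5G23010), which elongates the side chain, had 659 reads in *hac1/5*+INA, 3901 in Col+INA, 2885 in *npr1-1*+INA and 3761 reads in Col. *CYP79F1* (AT1G16410) had 159 reads in *hac1/5*+INA, 997 in Col+INA, 846 in *npr1-1*+INA and 845 reads in Col, and *CYP83A1* (AT4G13770) had 1961 reads in *hac1/5*+INA, 6385 in Col+INA, 5681 in *npr1-1*+INA and 6374 reads in Col. In each of these 4 genes *hac1/5*+INA was the lowest of the 4 libraries. Their regulators *MYB29* (AT5G07690; 96 reads in *hac1/5*+INA and 642 in Col) and *MYB28* (AT5G61420; 42 in *hac1/5*+INA and 114 in Col), the indolic regulator *MYB34* (AT5G60890; 84 in *hac1/5*+INA and 515 in Col) and the myrosinase *TGG2* (AT5G25980; 13 in *hac1/5*+INA and 170 in Col) were also called lower. *MAM3* (AT5G23020), outside the list, had 1 read in *hac1/5*+INA, 1172 in Col+INA, 91 in *npr1-1*+INA and 320 reads in Col, and so was among the 5 genes with most reads in Col of those with 3 or fewer in *hac1/5*+INA.

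**Figure D4:**
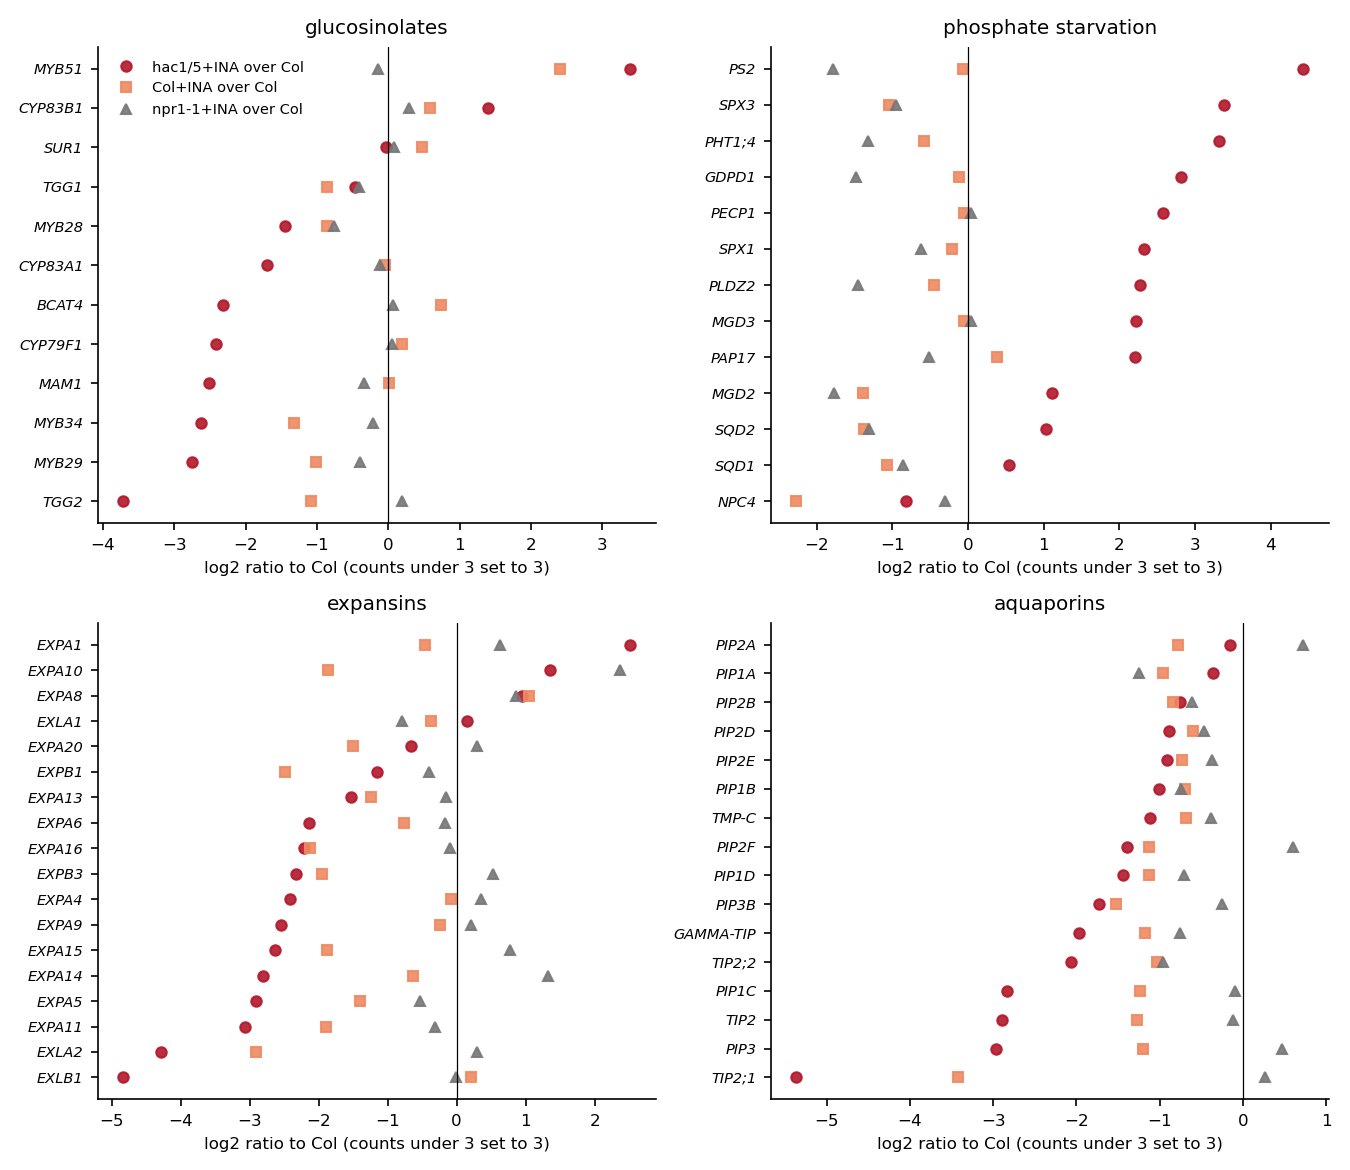
Log2 ratio to Col (horizontal axis, counts under 3 set to 3) of *hac1/5*+INA (circles), Col+INA (squares) and *npr1-1*+INA (triangles) for glucosinolate, phosphate starvation, expansin and aquaporin genes with at least 10 reads in *hac1/5*+INA or in Col. The circles of *BCAT4*, *CYP79F1* and *MAM1* lie between -2.52 and -2.32 with their squares between 0.01 and 0.73, and *PS2* lies at 4.43 with its square at -0.07.

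The largest falls included genes of the cell wall and of water transport. Among genes with at least 10 reads in both libraries, *AT1G23205*, a pectin methylesterase inhibitor family gene, was lowest with 10 reads in *hac1/5*+INA, 44 in Col+INA, 1931 in *npr1-1*+INA and 1175 reads in Col (ratio to Col 0.00848, CI 0.00406 to 0.0157). The pectin lyase-like gene *AT1G60590* had 29 reads in *hac1/5*+INA, 143 in Col+INA, 3653 in *npr1-1*+INA and 2458 reads in Col, and the extensin-like *ELP* (AT1G12090) had 77 reads in *hac1/5*+INA, 146 in Col+INA, 1733 in *npr1-1*+INA and 3956 reads in Col. These genes were low in both *hac1/5*+INA and Col+INA and high in *npr1-1*+INA and Col. *BT1* (AT5G63160), a BTB and TAZ domain protein, had 12 reads in *hac1/5*+INA, 277 in Col+INA, 641 in *npr1-1*+INA and 781 reads in Col, and the pollen allergen-like gene *AT3G26960* had 12 reads in *hac1/5*+INA, 291 in Col+INA, 383 in *npr1-1*+INA and 413 reads in Col. For these 2 genes most of the difference lay between *hac1/5*+INA and Col+INA, with ratios of 0.0446 (CI 0.0228 to 0.0791) and 0.0424 (CI 0.0217 to 0.0753). The leucine-rich repeat gene *AT3G17640* (18 reads in *hac1/5*+INA, 86 in Col+INA, 297 in *npr1-1*+INA and 895 reads in Col) and the lipid-transfer gene *AT3G22142* (12 reads in *hac1/5*+INA, 64 in Col+INA, 331 in *npr1-1*+INA and 594 reads in Col) were also among the 8 lowest.

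Expansins loosen cell walls during growth. Of 19 measured expansin genes 13 were called lower and 2 higher, with a median log2 ratio of -2.21 (-1.24 for Col+INA over Col and 0.20 for *npr1-1*+INA over Col). *EXLB1* (AT4G17030) had 0 reads in *hac1/5*+INA, 101 in Col+INA, 82 in *npr1-1*+INA and 85 reads in Col, at least 28.4-fold lower than in Col. *EXPA4* (AT2G39700) had 110 reads in *hac1/5*+INA, 567 in Col+INA, 719 in *npr1-1*+INA and 584 reads in Col. *EXPA5* (AT3G29030) had 89 reads in *hac1/5*+INA, 260 in Col+INA, 447 in *npr1-1*+INA and 666 reads in Col, and *EXPA11* (AT1G20190) had 70 reads in *hac1/5*+INA, 163 in Col+INA, 456 in *npr1-1*+INA and 587 reads in Col. The 2 called higher were *EXPA10* (AT1G26770; 190 reads in *hac1/5*+INA, 21 in Col+INA, 371 in *npr1-1*+INA and 74 reads in Col) and *EXPA1* (AT1G69530; 23 reads in *hac1/5*+INA, 3 in Col+INA, 6 in *npr1-1*+INA and 4 reads in Col). Of 58 measured *SAUR* genes, which respond to auxin, 4 were called higher and 4 lower, both shares below the 16.0% and 9.59% of all genes, and TMM scaling gave 4 higher and 7 lower.

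Aquaporins are the water channels of the plasma membrane and the tonoplast. Of 19 aquaporin genes, a list made after values were seen, 11 were called lower and none higher, with a median log2 ratio of -1.12. The aquaporin median was nearly as low for Col+INA over Col, at -0.96, and was -0.25 for *npr1-1*+INA over Col. *TIP2;1* (AT3G16240, delta-TIP) had 170 reads in *hac1/5*+INA, 670 in Col+INA, 8113 in *npr1-1*+INA and 6983 reads in Col (ratio to Col 0.0243, CI 0.0207 to 0.0283). The tonoplast gene *TIP2* (AT3G26520) had 1752 reads in *hac1/5*+INA, 5511 in Col+INA, 11563 in *npr1-1*+INA and 12940 reads in Col, and the plasma membrane gene *PIP3* (AT4G35100) had 31 reads in *hac1/5*+INA, 109 in Col+INA, 323 in *npr1-1*+INA and 242 reads in Col. *PIP2B* (AT2G37170), with 1900 reads in *hac1/5*+INA and 3209 in Col, was among the 8 that were not called. Lipid-transfer proteins carry lipids to the cuticle and act in signalling. Of 32 measured genes 7 (21.9%) were called higher, not far from the 16.0% of all genes. A further 12 (37.5%) were called lower, against 9.59% of all genes. *AT3G22600* had 554 reads in *hac1/5*+INA, 1375 in Col+INA, 4 in *npr1-1*+INA and 2 reads in Col, whereas *AT1G62510* had 7 reads in *hac1/5*+INA, 84 in Col+INA, 136 in *npr1-1*+INA and 1403 reads in Col. Of 8 measured genes of cuticular wax synthesis, also listed after values were seen, 6 were called lower and none higher. Their median log2 ratio was -2.43, against -1.60 for Col+INA over Col and -1.11 for *npr1-1*+INA over Col. *WSD1* (AT5G37300), a wax ester synthase, had 0 reads in *hac1/5*+INA, 23 in Col+INA, 271 in *npr1-1*+INA and 898 reads in Col, at least 300.4-fold lower than in Col. *KCS2* (AT1G04220), a fatty acid elongase, had 75 reads in *hac1/5*+INA, 485 in Col+INA, 645 in *npr1-1*+INA and 1982 reads in Col, and *CER4* (AT4G33790), which makes primary alcohols, had 2 reads in *hac1/5*+INA, 57 in Col+INA, 152 in *npr1-1*+INA and 157 reads in Col.

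The other genes that nearly vanished from *hac1/5*+INA were the germin *GLP3* (AT5G20630), with 3 reads in *hac1/5*+INA, 9 in Col+INA, 2136 in *npr1-1*+INA and 546 reads in Col, the subtilase *AT4G21650*, with 0 reads in *hac1/5*+INA, 85 in Col+INA, 320 in *npr1-1*+INA and 393 reads in Col, and the gibberellin-regulated *GASA6* (AT1G74670), with 2 reads in *hac1/5*+INA, 192 in Col+INA, 401 in *npr1-1*+INA and 333 reads in Col. Of the genes called lower, 356 had 3 or fewer reads in *hac1/5*+INA.

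Most photosynthesis genes were not called. Of 64 genes described as light-harvesting or photosystem proteins, 1 was called higher, the pseudogene *AT2G07688* with 28 reads in *hac1/5*+INA and 8 in Col, and 4 were called lower, both shares below the 16.0% and 9.59% of all genes, with a median log2 ratio of -0.36. Under TMM scaling 0 were called higher and 11 lower. The median of these photosynthesis genes was lower for Col+INA over Col, at -0.74, and was -0.24 for *npr1-1*+INA over Col. *LHB1B1* (AT2G34430) had 509 reads in *hac1/5*+INA, 2087 in Col+INA, 804 in *npr1-1*+INA and 9275 reads in Col, but it has near-identical copies, and *LHB1B2* was about level per length at 9242 RPKM in *hac1/5*+INA and 9131 RPKM in Col. Of 12 Calvin cycle genes 5 were called lower and none higher, with a median log2 ratio of -0.87. TMM scaling raised the lower ones to 8. The Calvin cycle median was -0.60 for Col+INA over Col and 0.21 for *npr1-1*+INA over Col. *RBCS2B* (AT5G38420), a small subunit of Rubisco, had 5502 reads in *hac1/5*+INA, 17528 in Col+INA, 58612 in *npr1-1*+INA and 44972 reads in Col, and *SBPASE* (AT3G55800) had 9169 reads in *hac1/5*+INA, 12783 in Col+INA, 26088 in *npr1-1*+INA and 23017 reads in Col. The copies *RBCS1B*, *RBCS2B* and *RBCS3B* share sequence, and the split of reads among them is uncertain. Of 283 measured nuclear genes described as ribosomal proteins, 23 were called higher and 2 lower, both shares below those of all genes, and TMM scaling gave 14 higher and 8 lower.

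Cold and dehydration genes encode hydrophilic protectants that rise with abscisic acid and low temperature. Of the 8 listed genes 6 were called lower in *hac1/5*+INA than in Col and none higher. Over all genes 9.59% were called lower and 16.0% higher. The median log2 ratio of the 8 was -2.34, against -0.18 for Col+INA over Col and -0.05 for *npr1-1*+INA over Col. *COR47* (AT1G20440), a dehydrin, had 128 reads in *hac1/5*+INA, 674 in Col+INA, 506 in *npr1-1*+INA and 816 reads in Col. *ERD10* (AT1G20450) had 17 reads in *hac1/5*+INA, 145 in Col+INA, 110 in *npr1-1*+INA and 125 reads in Col, and *RD29A* (AT5G52310) had 27 reads in *hac1/5*+INA, 214 in Col+INA, 272 in *npr1-1*+INA and 414 reads in Col. The 3 genes were at 0.121 to 0.195 of their Col+INA values. *COR15A* (AT2G42540; 4 reads in *hac1/5*+INA, 23 in Col+INA, 66 in *npr1-1*+INA and 60 reads in Col) has a close copy in *COR15B* (AT2G42530; 10 reads in *hac1/5*+INA, 39 in Col+INA, 15 in *npr1-1*+INA and 33 reads in Col), and both were called lower. *RAB18* (27 reads in *hac1/5*+INA and 31 in Col) was not called.

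Genes raised by phosphate starvation, a list made after values were seen, were mostly higher in *hac1/5*+INA than in Col. Of 14 genes 11 were called higher and none lower, where 16.0% and 9.59% of all genes were. The median log2 ratio of the 14 was 2.25, against -0.33 for Col+INA over Col and -0.90 for *npr1-1*+INA over Col. *PS2* (AT1G73010), a phosphatase, had 2713 reads in *hac1/5*+INA, 123 in Col+INA, 35 in *npr1-1*+INA and 125 reads in Col (ratio to Col 21.6, CI 18.1 to 26.1; to Col+INA 22.7, CI 18.9 to 27.4). *PHT1;4* (AT2G38940), a phosphate transporter, had 1139 reads in *hac1/5*+INA, 79 in Col+INA, 44 in *npr1-1*+INA and 114 reads in Col. *SPX1* (AT5G20150), a phosphate sensor, had 3549 reads in *hac1/5*+INA, 633 in Col+INA, 445 in *npr1-1*+INA and 707 reads in Col. *GDPD1* (AT3G02040), a glycerophosphodiester phosphodiesterase, had 4139 reads in *hac1/5*+INA, 559 in Col+INA, 204 in *npr1-1*+INA and 587 reads in Col, and the galactolipid and sulfolipid genes *MGD2* and *SQD2* had 687 and 5339 reads in *hac1/5*+INA and 318 and 2600 in Col. *MGD2* and *SQD2* lost their calls under TMM scaling, which left 9 of 14. *PHT1;1* (0 reads in *hac1/5*+INA and 1 in Col) and *NPC4* (8 in *hac1/5*+INA and 14 in Col) were not called.

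By the rule for genes called higher in *hac1/5*+INA whose Col+INA value was within a log2 ratio of 0.5 of Col or below it, the largest were *PS2*, *PHT1;4*, *AT1G23110* (107 reads in *hac1/5*+INA, 3 in Col+INA, 2 in *npr1-1*+INA and 11 reads in Col), *QQS* (AT3G30720, a regulator of starch content; 149 reads in *hac1/5*+INA, 22 in Col+INA, 11 in *npr1-1*+INA and 16 reads in Col), *AT1G19200* (133 reads in *hac1/5*+INA, 18 in Col+INA, 10 in *npr1-1*+INA and 15 reads in Col) and *AT3G43110* (184 reads in *hac1/5*+INA, 23 in Col+INA, 5 in *npr1-1*+INA and 25 reads in Col). By the matching rule for genes called lower, they were the TRAF-like *AT2G32870*, with 59 reads in *hac1/5*+INA, 2056 in Col+INA, 937 in *npr1-1*+INA and 1893 reads in Col, the methionine sulfoxide reductase *MSRB6* (AT4G04840; 15 reads in *hac1/5*+INA, 291 in Col+INA, 761 in *npr1-1*+INA and 298 reads in Col), *AT3G27250* (10 reads in *hac1/5*+INA, 228 in Col+INA, 218 in *npr1-1*+INA and 194 reads in Col), the light-stress protein *ELIP2* (AT4G14690; 32 reads in *hac1/5*+INA, 1258 in Col+INA, 371 in *npr1-1*+INA and 579 reads in Col), the cyclin *CYCD1;1* (AT1G70210; 15 reads in *hac1/5*+INA, 154 in Col+INA, 202 in *npr1-1*+INA and 207 reads in Col) and the auxin repressor *AXR3* (AT1G04250; 64 reads in *hac1/5*+INA, 736 in Col+INA, 573 in *npr1-1*+INA and 776 reads in Col). These 12 genes were selected on the shared Col library and are given as a description, and whether the difference was present before INA cannot be told from them.

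Among the histone acetyltransferases, *HAC5* and *HAC1* were called lower and *HAG1* (AT3G54610, GCN5; 199 reads in *hac1/5*+INA and 83 in Col) and *HAG3* (AT5G50320; 223 in *hac1/5*+INA and 111 in Col) higher, of 12 genes. The share called higher is near the 16.0% of all genes, and both genes called lower are the mutated ones. *HAG1* and *HAG3* lost their calls under TMM scaling. The close relatives of the mutated genes, *HAC12* (38 reads in *hac1/5*+INA and 35 in Col) and *HAC4* (134 in *hac1/5*+INA and 255 in Col), were not called, and under TMM scaling 0 of the 12 were called higher and 3 lower. Of 7 flowering genes, *FLC* (AT5G10140), the floral repressor, was called higher, with 37 reads in *hac1/5*+INA, 3 in Col+INA, 0 in *npr1-1*+INA and 7 reads in Col (ratio to Col 5.27, CI 2.32 to 14.0; to Col+INA 12.7, CI 4.02 to 64.3). Of 10 measured clock genes, *TOC1* (246 reads in *hac1/5*+INA, 234 in Col+INA, 58 in *npr1-1*+INA and 53 reads in Col) and *ELF3* (57 reads in *hac1/5*+INA, 26 in Col+INA, 57 in *npr1-1*+INA and 25 reads in Col) were called higher and *GI* (392 reads in *hac1/5*+INA, 767 in Col+INA, 697 in *npr1-1*+INA and 836 reads in Col) lower. The clock and flowering counts called higher are near the 16.0% of all genes, and the clock count called lower is near the 9.59%. *ELF3* lost its call under TMM scaling, and *CCA1*, *LHY*, *PRR9*, *RVE8*, *PRR5*, *PRR7* and *ELF4* were not called.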

How the data were processed

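RNA-seq libraries of leaves were analysed for *hac1/5*+INA, Col+INA, *npr1-1*+INA and Col. Alignment by the authors used SOAPaligner/soap2 with at most 2 mismatches against the *Arabidopsis* genome (TAIR10 per the submitters' processing notes), and the deposited counts are whole reads for each gene model. How reads fitting several gene models were counted is not given in the sources used here. The deposited RPKM are these counts scaled to gene model length and library total, with an RPKM of 0 written as 0.001; recomputed, they differed by at most 5.8e-08 on the log2 scale. The authors' columns of log2 ratios, p-values and FDR of their own comparisons were not used, and the number of per-sample columns without a matching sample was 0.

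Tables were merged on the gene model identifier, with a missing value read as 0. Each gene was represented by its gene model with most reads in *hac1/5*+INA and Col together (3272 genes have several). The binomial test, its adjustment over 24167 gene models, the thresholds and the intervals are given with the results. The test was run on simulated libraries that held counting error only, which cannot show how it behaves under variation between samples. Named genes were, by rule, the 8 highest and 8 lowest called genes with at least 10 reads in each library, the 5 with most reads among those with 3 or fewer in the other library, up to 4 called members of each list, genes the study names, and 6 genes in each direction with no matching change in Col+INA. Other list members are named as examples and were chosen after their values were seen. The comparison and its 29 gene lists were chosen with earlier results of these data known, and 3 further lists (aquaporins, cuticular wax, phosphate starvation) after seeing these values. Coordinates are those of the tables. Some items that the rule or the lists name are not reported here. For promoters, 99.3% of nuclear gene models lay within 300 bases of the span of their gene in the RefSeq annotation. The alternatives were an adjusted p of 0.2, a log2 threshold of 1.5, the exact test of edgeR at a preset biological variation (BCV) of 0.2 or 0.4, TMM factors, DESeq2 size factors, a filter of 10 reads in at least 1 library, log2(RPKM + 1), and reads summed over the gene models of a gene. Scaling factors and alternatives came from edgeR 4.0.16 and DESeq2 1.42.0 under R 4.3.3. All other steps ran in Python 3.11.15 with SciPy 1.17.1, pandas 2.3.3 and numpy 2.4.6, and plots in matplotlib 3.10.9.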

Additional observations from a re-analysis of the deposited data

How the results depend on the processing

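The 3364 genes called higher became 2111 at a log2 threshold of 1.5, 1789 with edgeR's exact test at an assumed biological coefficient of variation of 0.2, and 374 at 0.4. The 2019 called lower became 1131 and 171 with edgeR's exact test at these variations. Under the other alternatives each count stayed within 1.5 times, from 2419 (TMM factors) to 4132 (adjusted p of 0.2) genes higher and from 1443 (log2 threshold of 1.5) to 2724 (adjusted p of 0.2) lower. Of the 5383 calls, 4438 remained with TMM factors, 4502 with DESeq2 size factors, 2920 at a variation of 0.2 and 545 at 0.4, and 0 turned to the opposite call under any alternative. Of 142 genes named by rule, 141 were called, and 59 of these lost the call at a variation of 0.4, 11 at 0.2, 9 at a log2 threshold of 1.5 and 4 with TMM factors. *CHIB* was called with TMM factors, with DESeq2 size factors, at an adjusted p of 0.2 and with reads summed over gene models. No replicate could be left out, since each condition has 1 library. No paired analysis was possible because no condition has more than 1 library. The variation between plants was not measured, and the number of genes that would pass with replicates is not known.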
